A study of Mus musculus with 8 samples.

Results

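The platelet-derived growth factor (PDGF) system was followed across the cell types of the adult mouse liver through its 6 genes, the ligands *Pdgfa*, *Pdgfb*, *Pdgfc* and *Pdgfd* and the receptors *Pdgfra* and *Pdgfrb*. They were taken by name from a table of 46517 genes counted in 3491 single cells. At least 1 read of *Pdgfrb* was counted in 45.7% of all cells, of *Pdgfra* in 36.7%, of *Pdgfa* in 30.9%, of *Pdgfd* in 30.8%, of *Pdgfc* in 15.9% and of *Pdgfb* in 14.8%.

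PDGFs are secreted dimers that bind a pair of related receptor tyrosine kinases on the surface of other cells. PDGF-A and PDGF-C act mainly through PDGFRα, while PDGF-B binds both receptors and PDGF-D mainly PDGFRβ. PDGF-C and PDGF-D carry a domain that must be cut off before they can bind. In blood vessels, PDGF-B from the endothelium recruits mural cells, the smooth muscle cells (SMC) and pericytes that carry PDGFRβ. In the liver, hepatic stellate cells (HSC), the vitamin A-storing cells along the sinusoids, and portal fibroblasts are known as PDGF-responsive cells.

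Cells of dissociated livers from adult male and female mice on a C57BL6/J background had been sorted singly into plates and sequenced by Smart-seq2, a method that reads whole transcripts without molecular identifiers. The cells formed 4 classes, mesenchymal, endothelial, immune and epithelial, each with a male and a female pool, which gave 8 pools in all. The mesenchymal cells were collected through the reporters *Pdgfrb*GFP, *Pdgfra*H2bGFP and *Acta2*GFP or with an antibody against PDGFRα, and the reporter mice of the study, which also included *Cspg4*dsRED and *Cldn5*GFP, were heterozygous. Endothelial cells were taken with antibodies against CD31 or VE-cadherin or by *Cldn5*GFP, cholangiocytes with anti-EPCAM and macrophages with anti-CD68, whereas hepatocytes were living cells sorted without selection. The mouse behind each cell is not named. The reporter is not given as a label, though the names of some plates hold Acta2, Rb or EC. The pool, not the animal, was therefore the replicate, and p-values measure the spread between a male and a female pool only. Both receptors were thus used in the sort, and they also served to name the mesenchymal class; their absence outside that class is given as a description without a test. The authors built the clusters from these very transcriptomes, and differences between them are therefore partly built in.

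The pools held 39 to 998 cells and 6399550 to 218419420 gene counts in total, with a median of 88932 counts per cell in the female epithelial pool and of 182158 to 321121 in the others. No cell name occurred more than once, and 6 cells had no cluster. All female mesenchymal cells came from 1 plate, against 9 plates for the male ones, so sex and plate cannot be told apart there. Levels are CPM (counts-per-million) of the summed reads of a cluster in a pool, using sums of at least 5 cells for the comparisons, and levels of different genes were compared after division by the length of the merged exons, as CPM per kb, with plain CPM as an alternative for the receptors.

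The labelled fibroblasts, mural cells and HSC carried their markers. Summed over 5 fibroblast genes (*Col1a1*, *Col3a1*, *Dcn*, *Lum*, *Dpt*), the fibroblasts reached 16398 and 15921 CPM in the male and the female pool. Over 5 mural genes (*Acta2*, *Tagln*, *Myh11*, *Notch3*, *Des*) the mural cells reached 13174 and 16515 CPM, and over 4 stellate genes (*Reln*, *Lrat*, *Hgf*, *Lhx2*) the HSC reached 4080.1 and 3176 CPM. The fibroblast genes were not confined to fibroblasts. They summed to 14459 and 11956 CPM in the HSC, near the values of the fibroblasts. Among mural cells they summed to 885 and 1444 CPM in the arterial SMC (#m2c) and to 7571 and 6021 CPM in the portal vein SMC (#m8c). They reached 9836 and 10436 CPM in the large-vein SMC (#m15c) and 14999 and 13384 CPM in the venous SMC (#m9c). The stellate genes summed to 2233 and 1584 CPM in the perivascular cells of #m5c and to 1764 and 1336 CPM in the venous SMC.

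*Pdgfra*, the gene of the α-receptor, was found at high level in fibroblasts, HSC and second layer cells, a perivascular type (#m5c), and at low level in mural cells. On GRCm38 the gene lies on the plus strand of chromosome 5 (75152292 to 75198215), and its merged exons span 10024 bases. Over the 10 fibroblast sums *Pdgfra* ranged from 366 to 908 CPM, with a median of 499.9. In the male pool the peribiliary fibroblasts (#m4) stood at the top, with 908 CPM in 89 cells, but in the female pool 9 such cells had 490.2 CPM. The *Wt1*+ fibroblasts had 638 and 423 CPM in #m11c and 838 and 717 CPM in #m12c, the highest fibroblast value of the female pool. The portal fibroblasts had 470.2 and 366 CPM in #m1, 429 CPM in #m8 and 509.7 CPM in #m10, the last 2 clusters being measured in the male pool.

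Among the HSC, the capsular HSC (#m3c) had 506 and 435 CPM of *Pdgfra* in the male and female pools, and the other HSC (#m7c) had 224 CPM in the male pool. Only 4 female cells fell in #m7c, at 221 CPM, too few for a comparison. The second layer cells had 274 and 270.1 CPM. Each of these lay above every mural sum. The 8 mural sums ranged from 3.06 to 123 CPM with a median of 29.0: the arterial SMC had 10.2 and 6.81 CPM, the large-vein SMC 3.06 and 21.6 CPM, the portal vein SMC 85.2 and 54.1 CPM and the venous SMC 123 and 36.4 CPM.

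*Pdgfrb*, the gene of the β-receptor, was high in every one of these cell types. Its merged exons, on chromosome 18, span 5478 bases. The fibroblast sums ranged from 440.1 to 1089 CPM with a median of 814, and the mural sums from 454 to 2955 CPM with a median of 1088, so the ranges overlapped. The lowest fibroblast values were those of #m11c in males (440.1 CPM) and of the peribiliary fibroblasts (478 and 583 CPM). The highest values in both pools belonged to the portal vein SMC, with 2065 and 2955 CPM. The venous SMC had 1033 and 2497 CPM, which was second in the female pool but lay below the capsular HSC and the portal fibroblasts of #m8 (1076 CPM) in the male pool. The arterial SMC had 917 and 1144 CPM and the large-vein SMC 454 and 593 CPM. Capsular HSC reached 1664 and 1927 CPM, HSC 852 CPM and second layer cells 982 and 1566 CPM. In all 10 mesenchymal clusters measured in both pools the female sum was higher, and sex and plate cannot be told apart in this.

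**Figure D1:**
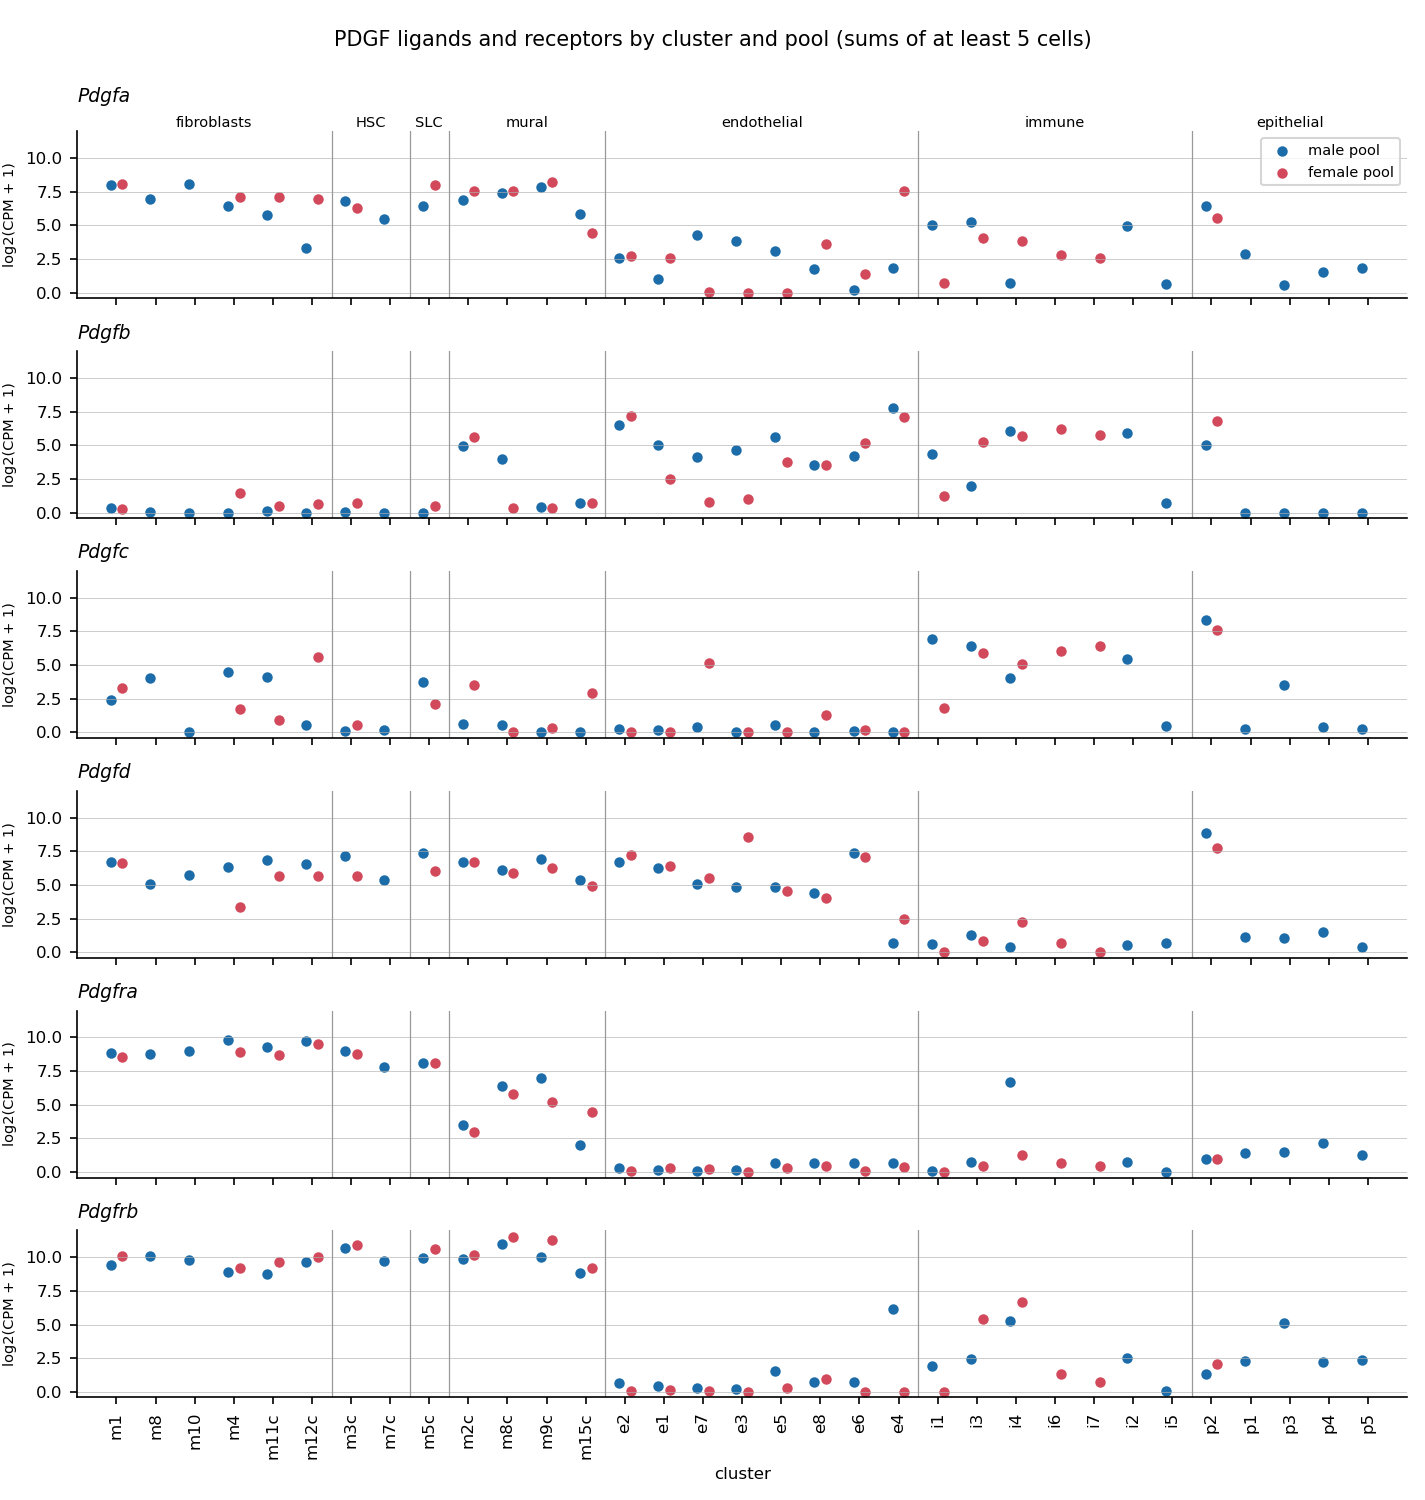
Levels of the 6 genes in every cluster, as log2(CPM + 1) of the summed counts, 1 panel per gene; each point is a cluster in the male or the female pool. *Pdgfra* and *Pdgfrb* were high in the mesenchymal clusters, *Pdgfc* and *Pdgfd* peaked in cholangiocytes at 329 and 475 CPM in the male pool, and *Pdgfb* was near 0 in fibroblasts and at 0 in hepatocytes.

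Mural cells against fibroblasts was the comparison in which the receptors parted. *Pdgfra* was lower in mural cells by a log2 fold change of -4.31 ± 0.37 (SE; adjusted p = 9.1e-08; edgeR, quasi-likelihood, p-values adjusted by Benjamini-Hochberg, as throughout), and all 8 mural sums lay below all 10 fibroblast sums. *Pdgfrb* differed by 0.59 ± 0.19 (adjusted p = 0.084) and was not called, a call being an adjusted p under 0.05 with a log2 fold change of at least 1 in size. In this comparison 1 of the 6 genes was called, where 3.87% of all 21339 genes tested were (1.29% higher and 2.58% lower). The fall of *Pdgfra* was as large within each pool: the difference of mean log2(CPM + 1), mural minus fibroblast, was -4.52 in the male and -4.30 in the female pool. In single male plates, fibroblasts had 418 to 869 CPM of *Pdgfra* over 6 plates and mural cells 0 to 149.6 CPM over 7, again without overlap, whereas *Pdgfrb* at 602 to 1030.1 and 477 to 1897 CPM overlapped.

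HSC against mural cells gave the same split for *Pdgfra*, at 3.54 ± 0.42 on the log2 scale (adjusted p = 2.9e-05), with all 3 HSC sums above all 8 mural sums. The fibroblast markers were higher in HSC too, at 14459 and 11956 CPM against 5336 and 4164 CPM in mural cells. Their part in the difference was not tested. *Pdgfrb* differed by 0.01 ± 0.27 (adjusted p = 1.0), and its direction turned under 3 other settings. Here 1 of 6 genes was called, against 2.27% of all genes (1.71% higher, 0.562% lower). Second layer cells, in which the fibroblast markers summed to 18956 and 18525 CPM, likewise had more *Pdgfra* than mural cells (3.25 ± 0.45, adjusted p = 2.0e-04), in both pools and above every mural sum, and differed in *Pdgfrb* by 0.02 ± 0.30 (adjusted p = 1.0), a direction that turned under 4 other settings. There too 1 of 6 was called, against 1.91% of all genes (1.75% higher, 0.164% lower).

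HSC against fibroblasts gave no call among the 6 genes, where 1.27% of all genes were called (0.759% higher, 0.511% lower) and 1 member, *Pdgfrb*, had an unadjusted p under 0.05. *Pdgfra* differed by -0.78 ± 0.49 (adjusted p = 0.85) and *Pdgfrb* by 0.60 ± 0.26 (adjusted p = 0.47). Peribiliary against other fibroblasts gave no call either (0.0469% of all genes were called, 0.0281% higher and 0.0187% lower; 1 member had an unadjusted p under 0.05), with *Pdgfra* at 0.34 ± 0.51 and *Pdgfrb* at -0.81 ± 0.32 (adjusted p = 0.5), and *Pdgfrb* was lower in both pools. Capsular HSC against HSC gave none (0.0234% of all genes, all higher; no member had an unadjusted p under 0.05), with 0.97 ± 0.84 and 0.97 ± 0.49 for *Pdgfra* and *Pdgfrb*. The HSC of #m7c were 1 sum, assumed to vary like the other clusters, so the lack of a call says little.

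Among mural cells, the arterial SMC had less *Pdgfra* than the venous types on average, by -2.23 ± 0.62, which missed the threshold (adjusted p = 0.075); 0 of 6 genes were called by edgeR, against 1.64% of all genes (0.923% higher, 0.722% lower), and *Pdgfra* and *Pdgfb* had an unadjusted p under 0.05. The ranking was not uniform, as the large-vein SMC of the male pool had the lowest value of all. The call was made with DESeq2 (-2.39 ± 0.60, adjusted p = 0.0023) and with a minimum of 10 cells per sum (-2.49 ± 0.50, adjusted p = 0.014), a step that drops the 7 male large-vein cells. The fibroblast markers were lower in the arterial SMC too, at 885 and 1444 CPM against 6021 to 14999 CPM in the venous types, and their part in the difference was not tested. *Pdgfrb* differed by -0.32 ± 0.32 (adjusted p = 0.92).

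**Figure D2:**
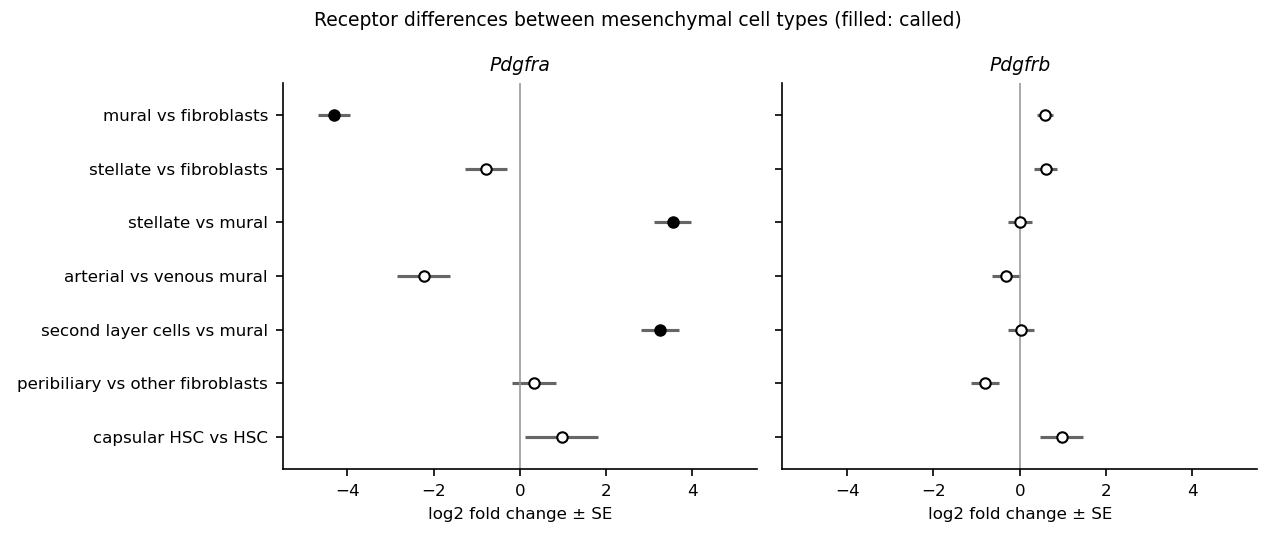
Log2 fold changes (points) with SE (bars) of *Pdgfra* and *Pdgfrb* in 7 comparisons between mesenchymal cell types, filled where called. *Pdgfra* was called in 3 comparisons, all of them against mural cells (-4.31, 3.54 and 3.25), and *Pdgfrb* in none.

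Per kb of exon, *Pdgfrb* was above *Pdgfra* in 22 of the 23 mesenchymal sums, and on plain CPM in 20 of 23. The exception per kb was the peribiliary fibroblasts of the male pool, in which the ratio of *Pdgfrb* to *Pdgfra* was 0.962. In the other fibroblast sums the ratio reached up to 5.45 (#m1, female). It was 6.02 to 8.11 in the HSC sums, and 6.56 and 10.6 in the second layer cells. In mural cells it began at 15.4 (#m9c, male) and reached 308 in the female arterial SMC. The ratio therefore ordered the cell types as fibroblasts, HSC and mural cells without overlap, and the second layer cells overlapped the HSC.

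**Figure D3:**
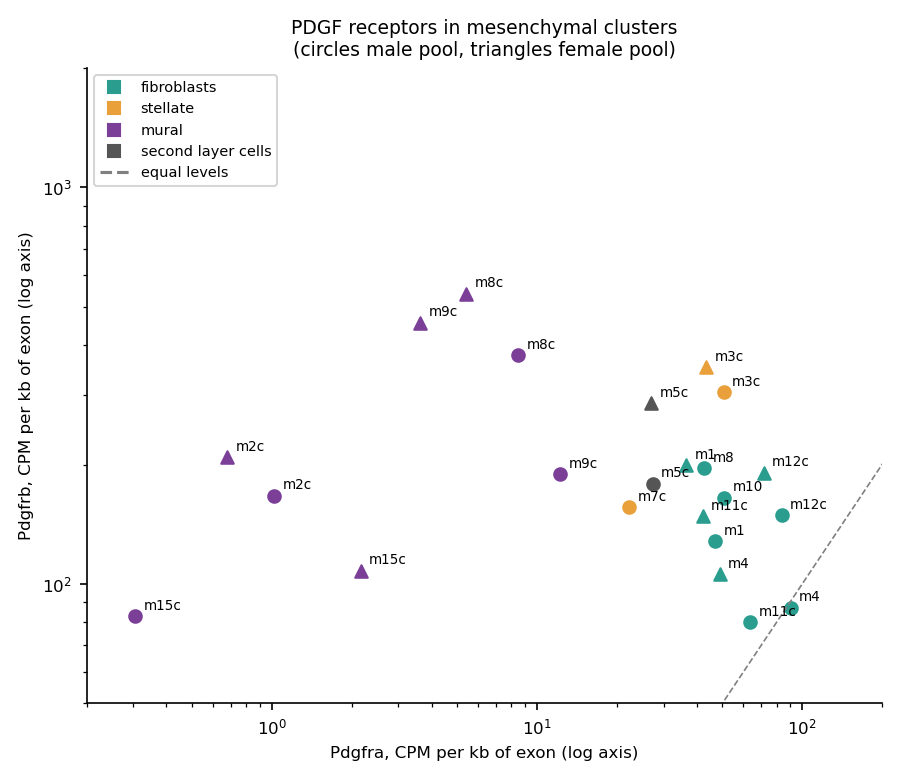
*Pdgfrb* against *Pdgfra* in the 23 mesenchymal sums, in CPM per kb of exon on log axes; circles are male and triangles female pools, colours are cell types and the dashed line marks equal levels. Mural sums lay at the left, and only the peribiliary fibroblasts of the male pool fell below the line, at a ratio of 0.962.

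Single cells were counted as well, as sums cannot tell whether both receptors were in the same cell. With at least 1 count of each, 86.1% of 541 male and 97.0% of 133 female fibroblasts held both receptors (exact 95% binomial intervals 82.9 to 88.9% for males). The share was 81.1 and 88.5% in HSC, 69.7 and 100% in second layer cells, and 47.7 and 82.8% in mural cells. A single count was not specific, however: in 201 male hepatocytes, which should lack both, 22.9% had a count of *Pdgfra* and 42.8% of *Pdgfrb*, at a median depth of 166805 counts against 156840 in male mural cells. With at least 20 counts these background shares were 0 and 0.995%, and this limit was used for the shares that follow, apart from the thinned ones. The intervals cover counting error only, as reads without molecular identifiers are not independent molecules.

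At 20 counts, both receptors were found in 51.8% of male and 76.7% of female fibroblasts, in 41.5 and 69.2% of HSC, in 30.3 and 66.7% of second layer cells, and in 8.11 and 3.82% of mural cells. *Pdgfrb* alone was found in 74.8 and 93.6% of mural cells. Fibroblasts with *Pdgfrb* alone made up 29.8 and 19.5%, and HSC with *Pdgfrb* alone 39.0 and 30.8%. Over all fibroblasts *Pdgfra* alone was rarer, at 10.2 and 2.26%. In the male peribiliary fibroblasts it was the more frequent of the single states, at 21.3% against 10.1% with *Pdgfrb* alone, and all 9 female ones held both. Of the arterial SMC, 0 of 109 female cells held 20 counts of both (upper limit 3.33%), and 0.787% of 127 male cells did. The portal vein SMC reached 18.3 and 8.33% and the venous SMC 21.4 and 20%. Cells of the female pool were deeper, with medians of 373339 against 197674 counts in fibroblasts. After thinning each cell to 50000 counts, at least 1 count of both was found in 73.9 and 91.0% of fibroblasts, 66.5 and 80.0% of HSC, 56.1 and 81.0% of second layer cells and 23.9 and 36.3% of mural cells, which kept mural cells lowest in both pools. The thinned background in male hepatocytes was 10.9% for *Pdgfra* and 20.9% for *Pdgfrb*.

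**Figure D4:**
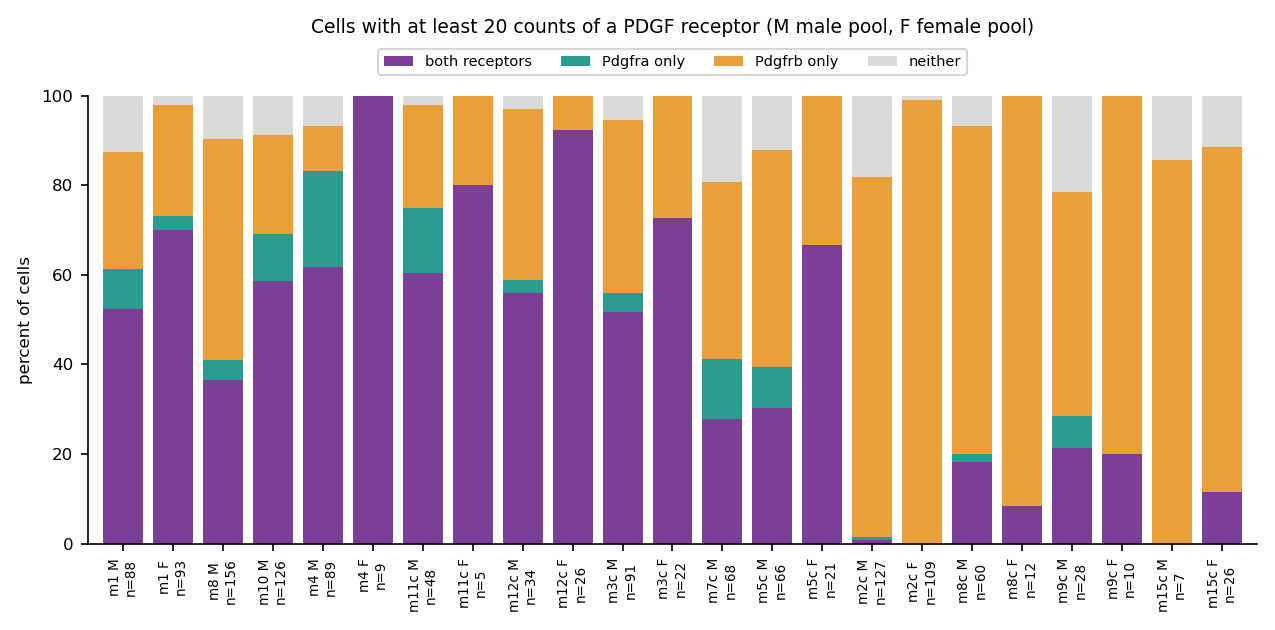
Share of cells, in percent, with at least 20 counts of both receptors, of 1 receptor alone or of neither, in each mesenchymal cluster and pool (M male, F female, n cells below). Cells with both made up 51.8 and 76.7% of male and female fibroblasts, whereas *Pdgfrb* alone was the main state of mural cells (74.8 and 93.6%).

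Outside the mesenchyme, *Pdgfra* was at 0 to 0.639 CPM in the sinusoidal, portal vein and central vein sums of the endothelium, at 0.960 and 0.961 CPM in cholangiocytes and at 1.36 to 3.49 CPM in the hepatocyte clusters. *Pdgfrb* was at 0 to 1.96 CPM, 1.55 and 3.20 CPM, and 3.72 to 33.5 CPM in the same groups. The larger values rested on few cells. In the male lymphatic endothelium (#e4) *Pdgfrb* was at 71.1 CPM, 99.1% of it from 1 of 9 cells, and that sum also held 1754 CPM of fibroblast and 777 CPM of mural markers. In the immune cluster #i4, *Pdgfra* was at 105 CPM in males (99.4% from 1 cell) and *Pdgfrb* at 99.6 CPM in females (89.0% from 1 cell), beside 1198 and 714 CPM of fibroblast markers. That cluster includes 6 male and 20 female cells that the authors annotated Cont, in which *Pdgfrb* was at 93.2 and 222 CPM. No doublet caller was run here; the authors had set an upper limit on genes per cell.

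Cholangiocytes, the epithelial cells of the bile ducts, had the highest levels of any cell type of *Pdgfc* and *Pdgfd*, the ligands that need proteolytic activation. Among single clusters of the female pool, the sinusoidal #e3 stood higher in *Pdgfd*, at 385 CPM, most of it from 1 cell. In cholangiocytes (#p2, 157 male and 37 female cells) *Pdgfc* reached 329 and 190.2 CPM, against 0.209 to 10.5 CPM in the 4 hepatocyte clusters. *Pdgfd* was at 475 and 213 CPM, against 0.313 to 1.90 CPM. In single male plates, 5 in number, cholangiocytes had 79.6 to 471 CPM of *Pdgfc* and 291 to 504 CPM of *Pdgfd*. Per kb of exon, *Pdgfd* was above *Pdgfc* in both pools, at 151 against 64.7 and 67.5 against 37.4 CPM per kb. At 20 counts, *Pdgfc* was found in 55.4 and 29.7% of cholangiocytes, *Pdgfd* in 63.1 and 43.2%, and both in 38.9 and 18.9%. The female cells were shallower, with a median of 88932 counts against 341237, and 36.8% of their *Pdgfc* counts came from 1 cell. The cholangiocyte markers (*Krt19*, *Epcam*, *Krt7*) summed to 1921 and 2388 CPM in cholangiocytes, beside 4256 and 4606 CPM of hepatocyte markers (*Alb*, *Apoa1*, *Ttr*).

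The start regions of both genes were printed because the pair was high together in 1 cell type; that of *Pdgfra* stands beside them as the receptor that separated the mesenchymal types. *Pdgfc* lies on chromosome 3 (81036416 to 81214040, plus strand, GRCm38) and *Pdgfd* on chromosome 9 (6168584 to 6378850, plus strand). The sequences are the 250 bases before the RefSeq start of each gene (GRCm38.p6, plus strand), with matches to the searched motifs in capitals. The windows are chr3:81036166-81036415 for *Pdgfc*, chr9:6168236-6168485 for *Pdgfd* and chr5:75152001-75152250 for *Pdgfra*.
Pdgfc: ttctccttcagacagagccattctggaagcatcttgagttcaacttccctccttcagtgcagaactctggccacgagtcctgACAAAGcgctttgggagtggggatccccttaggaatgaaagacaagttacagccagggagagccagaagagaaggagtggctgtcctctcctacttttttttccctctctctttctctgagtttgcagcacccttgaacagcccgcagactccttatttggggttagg
Pdgfd: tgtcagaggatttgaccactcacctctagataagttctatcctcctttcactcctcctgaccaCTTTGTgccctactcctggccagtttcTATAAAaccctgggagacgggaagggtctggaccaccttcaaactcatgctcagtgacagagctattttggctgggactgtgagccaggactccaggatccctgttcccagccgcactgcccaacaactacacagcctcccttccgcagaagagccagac
Pdgfra: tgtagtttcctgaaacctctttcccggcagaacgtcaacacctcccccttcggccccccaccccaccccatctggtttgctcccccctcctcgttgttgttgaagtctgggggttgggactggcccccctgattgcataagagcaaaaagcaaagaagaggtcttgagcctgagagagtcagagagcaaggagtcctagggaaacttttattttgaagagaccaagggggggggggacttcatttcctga

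The motifs, searched on both strands, were TATAAA (the core of the TATA box), GGGCGG (the GC box), CCAAT (the CCAAT box), ACAAAG (the core of SOX sites) and GTTAAT (part of HNF1 sites). Of 32851 promoter windows of the same length, 12.4, 32.7, 33.8, 16.5 and 6.4% held them. *Pdgfc* and *Pdgfd* each held 1 ACAAAG, at 168 bases before the start and, on the reverse strand, at 187 bases. *Pdgfd* also held a TATAAA at 160 bases. None of the 5 was in the *Pdgfra* window, which says no more than that these letters are not in it. The windows held 3, 3 and 4 CpG, against a median of 6, at a GC content of 50.8, 53.6 and 54.4%. Both windows of *Pdgfa* had more CpG (19 and 28) and held GGGCGG, which is common among all promoters.

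Cholangiocytes against hepatocytes gave calls for all 4 ligands, all higher, where 37.3% of all 16694 genes tested were called (28.6% higher, 8.67% lower); the share of the members was read against this wide background. *Pdgfc* was higher by 7.94 ± 0.81 (log2, adjusted p = 1.3e-07), *Pdgfd* by 7.78 ± 0.77 (adjusted p = 9.4e-08) and *Pdgfa* by 4.26 ± 0.90 (adjusted p = 6.6e-04). *Pdgfa* was at 85.2 and 46.3 CPM in cholangiocytes and 0.524 to 6.35 CPM in hepatocytes. *Pdgfb* had no count in 201 male hepatocytes, which allows up to 0.0837 CPM at 3 counts, and 31.2 and 113 CPM in cholangiocytes, at least 373-fold and at least 1350.1-fold higher than this male floor. These levels rested on few cells, as 1 cell gave 35.3% of the male and 44.6% of the female counts, and over the 5 male plates *Pdgfb* ranged from 0 to 41.2 CPM with a median of 0. In the male and female cholangiocytes, endothelial markers summed to 28.9 and 132 CPM, immune markers to 9.21 and 200 CPM and mural markers to 25.7 and 198 CPM. Their part in the *Pdgfb* levels was not tested. The receptors were not called, at -1.78 ± 1.61 and -2.35 ± 1.13. The hepatocyte sums were all male and only 1 residual degree of freedom, from the cholangiocyte pools, carried the test. With sums per plate, *Pdgfc* and *Pdgfd* were called and *Pdgfa* and *Pdgfb* were not (adjusted p = 0.06 and 0.067).

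At the level of classes, the epithelial pools had more *Pdgfd* (4.04 ± 0.34, adjusted p = 4.8e-04) and *Pdgfc* (3.99 ± 0.86, adjusted p = 0.02) than the other 3 classes, at 291 and 208 CPM of *Pdgfd* and 201 and 185 CPM of *Pdgfc*. All genes were fitted in the class comparisons, but of the members only the 4 ligands are counted, since the receptors had been used in the sort and to name a class; 2 of 4 were called here against 12.4% of all 24046 genes (8.37% higher, 4.05% lower). The call for *Pdgfc* was lost without the male or without the female epithelial pool (adjusted p = 0.091 and 0.061).

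In the mesenchymal class, 2 of 4 ligands were called, both higher, against 11.8% of all genes (9.47% higher, 2.33% lower). *Pdgfa*, a ligand of the α-receptor, was at 147 and 195 CPM, against 7.18 to 53.3 CPM in the pools of the other classes (3.21 ± 0.42, adjusted p = 0.0024). *Pdgfd* was at 87.0 and 85.8 CPM (2.10 ± 0.34, adjusted p = 0.0064), although above it stood the epithelial pools and the female endothelial pool with 91.1 CPM, the contrast being against the mean of the log levels of the other classes. *Pdgfb* differed by -2.33 ± 0.81 (adjusted p = 0.12), a difference that was called with the pool as a block (-2.45 ± 0.59, adjusted p = 0.042). *Pdgfc* was not called (-1.97 ± 1.07, adjusted p = 0.35) other than without the male endothelial pool (-2.30, adjusted p = 0.028) and without the filter on low counts (-1.92, adjusted p = 0.031).

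*Pdgfa* lies on chromosome 5 (138976014 to 138997370, minus strand), and its highest levels were in clusters that also carried the receptors. The fibroblast sums ranged from 9.04 to 264 CPM, a wide spread around a median of 132. The portal fibroblasts of #m1 had 259.8 and 264 CPM and those of #m10 263 CPM, whereas the *Wt1*+ fibroblasts of #m12c had 9.04 and 125 CPM. Mural sums ranged from 20.4 to 298 CPM with a median of 180.1, highest in the venous SMC (233 and 298 CPM) and lowest in the large-vein SMC (56.9 and 20.4 CPM). HSC had 43.0 to 109 CPM and second layer cells 87.7 and 258 CPM, the female value with 46.1% from 1 cell. No comparison between mesenchymal types called *Pdgfa*, the largest being HSC against fibroblasts at -1.12 ± 0.65 (adjusted p = 0.79). At 20 counts, 25.3% of male and 48.9% of female fibroblasts held *Pdgfa* together with *Pdgfra*.

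*Pdgfd* was spread more evenly over the mesenchyme. Fibroblast sums ranged from 9.26 to 115 CPM, HSC sums from 39.9 to 139.9 CPM and mural sums from 29.8 to 121 CPM, all overlapping, and the fold changes between them were 0.17 ± 0.46 for mural cells and 0.02 ± 0.66 for HSC against fibroblasts. Per kb of exon, *Pdgfa* was above *Pdgfd* in fibroblasts, at 54.7 against 23.3 in the male and 72.2 against 26.1 in the female pool. HSC had no common order either. *Pdgfa* was below *Pdgfd* in the capsular HSC of the male pool (34.9 against 44.3 CPM per kb). It was above *Pdgfd* in those of the female pool (25.2 against 15.9) and in #m7c of the male pool (13.8 against 12.7). *Pdgfc* was low in most of the mesenchyme, at 9.48 and 14.8 CPM in fibroblasts and 0.122 and 0.416 CPM in HSC. The fibroblast sums ranged from 0.0299 to 47.5 CPM with a median of 6.54. The difference of HSC from fibroblasts, -4.49 ± 2.21, was not called (adjusted p = 0.61; DESeq2 called it at -4.47 ± 1.47, adjusted p = 0.044).

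**Figure D5:**
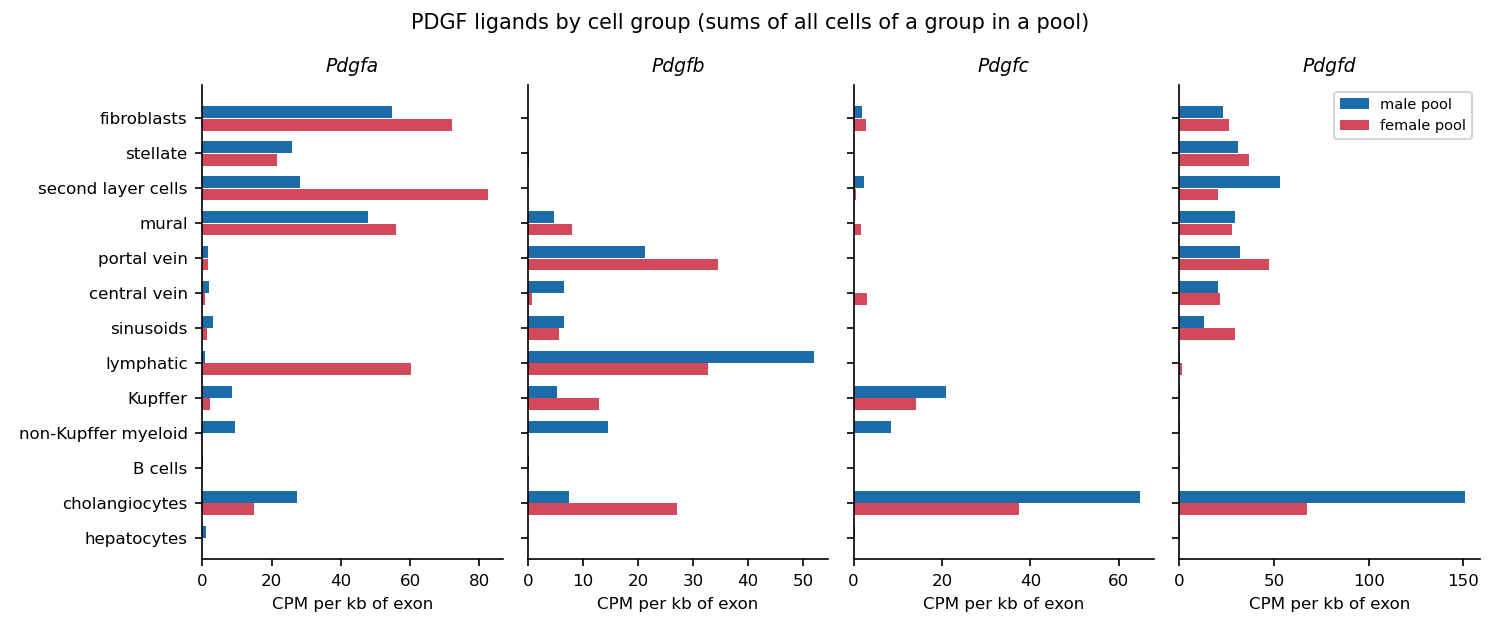
Levels of the 4 ligands by cell type (bars, male and female pool), in CPM per kb of exon of the summed counts, for groups of at least 5 cells. Cholangiocytes were highest for *Pdgfc* (64.7 and 37.4 CPM per kb) and *Pdgfd* (151 and 67.5), fibroblasts had 54.7 and 72.2 CPM per kb of *Pdgfa*, and *Pdgfb* was spread over endothelial, myeloid, cholangiocyte and mural cells.

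*Pdgfb*, on chromosome 15 (79995874 to 80014977, minus strand), was the member detected in the fewest cells. In the portal vein endothelium (#e2) it was at 88.7 and 144 CPM, above all 8 sinusoidal sums (1.07 to 47.5 CPM, median 14.9). The difference, 2.72 ± 0.99, was not called (adjusted p = 0.3), although it had the same direction in both pools (1.99 and 3.81 as differences of mean log2(CPM + 1)). None of the 6 genes was called by edgeR in portal vein against sinusoids, where 1.35% of all genes were called (1.23% higher, 0.115% lower), and *Pdgfb* alone had an unadjusted p under 0.05. At 20 counts, 13.2 and 21.7% of portal vein cells held *Pdgfb*, and 26.2 and 26.8% of its counts came from 1 cell each. Of the cells annotated as peribiliary vasculature within #e2, the 9 female ones had 478 CPM and the 5 male ones no count (up to 1.95 CPM). Without them, the cells annotated as portal vein (63 male and 51 female) were at 98.1 and 86.2 CPM, still above all 8 sinusoidal sums, but with the female value no longer the higher. Of these cells 14.3 and 15.7% held 20 counts of *Pdgfb*, and 1 cell each gave 26.2 and 52.5% of the counts.

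In the central vein endothelium *Pdgfb* was at 31.9 and 4.56 CPM in #e1, and none of the 6 genes was called against the sinusoids (1.48% of all genes were called, 1.33% higher and 0.147% lower; no member had an unadjusted p under 0.05). *Pdgfd* was the other endothelial ligand: it was at 102 and 149 CPM in the portal vein, 76.7 and 85.5 CPM in #e1 and 166 and 131 CPM in the last sinusoidal segment (#e6), against 15.6 to 28.3 CPM in all but 1 of the other sinusoidal sums. That sum, the female #e3, was at 385 CPM from 6 cells, 90.1% of it from 1 cell. Per kb of exon *Pdgfd* was above *Pdgfb* in the portal vein in both pools, at 32.3 against 21.3 and 47.4 against 34.6 CPM per kb. The endothelial class as a whole was at 8.62 and 10.1 CPM of *Pdgfa* and at 52.3 and 91.1 CPM of *Pdgfd*. Against the mean of the log levels of the other 3 classes *Pdgfa* was lower (-2.49 ± 0.55, adjusted p = 0.031), although the female immune pool was lower still at 7.18 CPM. *Pdgfd* was higher than that mean (1.62 ± 0.35, adjusted p = 0.027), which the immune pools at 0.529 and 0.468 CPM pulled down, while both epithelial pools and, in the male pool, the mesenchyme lay above the endothelium. These were 2 of 4 ligands against 8.28% of all genes (5.33% higher, 2.96% lower). Both calls were lost without either endothelial pool (adjusted p = 0.25 and 0.17 for *Pdgfa*, 0.071 and 0.37 for *Pdgfd*) and without either mesenchymal pool, and 1 of them without either immune pool or without the male epithelial pool. *Pdgfc* was at 0.144 and 5.47 CPM and differed by -4.14 ± 1.24 (adjusted p = 0.083), and by -8.49 without the female endothelial pool, where it was called (adjusted p = 0.009), as it was with DESeq2 (-4.21, adjusted p = 3.5e-04); in #e7 of that pool 1 cell gave 99.7% of the counts. *Pdgfb* did not differ between the endothelial class and the rest beyond its error (0.33 ± 0.68, adjusted p = 0.88), at 34.7 and 40.6 CPM.

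Kupffer cells, the resident macrophages of the liver, had *Pdgfc* and *Pdgfb*, some *Pdgfa* and almost no *Pdgfd*. *Pdgfc* was at 107 and 72.2 CPM and *Pdgfb* at 22.4 and 53.5 CPM, with 14.9 and 19.8% of cells holding 20 counts of *Pdgfc*, 3.73 and 15% of *Pdgfb*, and 0.746 and 3.81% of both. Over the 8 Kupffer sums *Pdgfc* ranged from 2.61 to 121 CPM, *Pdgfb* from 1.31 to 72.1 CPM and *Pdgfa* from 0.652 to 38.0 CPM. These sums include #i4, with its 1198 and 714 CPM of fibroblast markers and the cells annotated Cont. Non-Kupffer myeloid cells (#i2, 63 male cells) had 60.3 CPM of *Pdgfb*, 42.7 CPM of *Pdgfc* and 29.9 CPM of *Pdgfa*. No member was called by edgeR between #i2 and Kupffer cells, where 2.87% of all genes were called (2.77% higher, 0.0995% lower), and none had an unadjusted p under 0.05; the 1 sum of #i2 was assumed to vary like the others. Endothelial markers summed to 644 and 928 CPM in Kupffer cells and their part in these levels was not tested. Of these, 189 and 328 CPM were *Cdh5*, which Kupffer cells are known to express themselves, and the others were *Stab2* (266 and 447 CPM), *Pecam1* (129 and 106 CPM) and *Kdr* (59.6 and 47.6 CPM). B cells were at 0.670 CPM or less for all 6 genes. *Pdgfd* was lower in the immune class than in the other 3 (-7.75 ± 0.60, adjusted p = 3.0e-04), at 0.529 and 0.468 CPM, below every pool of the other classes, which was 1 of 4 ligands called against 13.2% of all genes (7.92% higher, 5.25% lower). *Pdgfc*, at 62.7 and 72.0 CPM, differed by 2.13 ± 0.86 (adjusted p = 0.16), and was called without the male or without the female endothelial pool (1.81 and 3.50, adjusted p = 0.033 and 0.0034).

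Platelets store PDGF-B, so platelet markers (*Pf4*, *Ppbp*, *Itga2b*, *Gp9*) were read beside *Pdgfb*. They summed to 44.5 and 3 CPM in the portal vein endothelium, with 3 of the 4 at 0 in the female pool, to 6.78 and 10.3 CPM in cholangiocytes, and to 4.26 and 10.5 CPM in arterial SMC. In Kupffer cells they summed to 115 and 38.5 CPM, in #i2 to 193 CPM and in the lymphatic endothelium to 178 and 244 CPM. Their part in the *Pdgfb* of any of these cells was not tested.

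Among mesenchymal cells, *Pdgfb* was found in the arterial SMC, at 30.1 and 48.3 CPM, and in the male portal vein SMC at 14.7 CPM. The other mesenchymal sums were at 1.79 CPM or less. The endothelial markers *Pecam1*, *Cdh5*, *Stab2* and *Kdr* summed to 19.1 and 17.2 CPM in the arterial SMC, against 2609 CPM or more in each endothelial type. At 20 counts, 4.72% of male and 11.9% of female arterial SMC held *Pdgfb*, and no fibroblast did (0 of 541 and 0 of 133 cells, upper limits 0.680 and 2.74%). Mural cells against fibroblasts came to 4.31 ± 1.26 for *Pdgfb*, just short of a call (adjusted p = 0.054); DESeq2 (4.46 ± 1.15, adjusted p = 0.0017) and sums of at least 10 cells (5.70 ± 1.35, adjusted p = 0.019) called it. Arterial against venous SMC came to 5.12 ± 1.62 (adjusted p = 0.13). The arterial SMC therefore held *Pdgfb* and *Pdgfrb* in the same cluster, at 7.23 and 11.6 against 167 and 209 CPM per kb of exon.

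The wider pathway was followed through 28 genes: convertases and activators of the ligands, binding proteins and co-receptors, the other class III receptor kinases, adaptors and effectors, and negative regulators. In mural cells against fibroblasts 0 of the 27 tested were higher and 6 were lower, where 1.29 and 2.58% of all genes were, with a median log2 fold change of -0.45 against -0.10 over all genes. They included *Plat* (-2.46 ± 0.39, adjusted p = 3.2e-04), tissue plasminogen activator, which cleaves PDGF-C, *Pdgfrl*, a PDGF receptor-like gene (-1.97 ± 0.34, adjusted p = 7.8e-04), and *Pcsk6*, a proprotein convertase (-1.96 ± 0.52, adjusted p = 0.031). Second layer cells had more *Pcsk6* (3.38 ± 0.69) and *Plat* (2.55 ± 0.53) than mural cells, with 3 of 27 higher and 0 lower (1.75 and 0.164% of all genes) and a median of 0.62 against 0.16. *Lrp1*, a receptor of the LDL receptor family that binds PDGFRβ, was higher in HSC than in mural cells (2.26 ± 0.30), the only one of 27 called there (1.71% of all genes were higher and 0.562% lower; median 0.73 against 0.07), and lower in arterial than in venous SMC (-1.73 ± 0.43), together with *Sparc* (-1.01 ± 0.18), whose product binds PDGF (0.923% of all genes were higher and 0.722% lower; median 0.04 against 0.34). HSC against fibroblasts gave no call among these genes (median -0.13 against 0.00 over all genes). With sums per plate the calls of *Plat*, *Pdgfrl* and *Pcsk6* against fibroblasts (adjusted p = 0.087, 0.15 and 0.56) and those of *Pcsk6* and *Plat* in second layer cells (0.19 and 0.18) were lost, with the direction kept.

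In the endothelium, *Pcsk5*, another convertase, was higher in the portal vein (9.11 ± 1.39) and in the central vein (8 ± 1.35) than in the sinusoids, and *Kit*, a related receptor kinase, was lower in the portal vein (-6.75 ± 1.13), the only calls among 27 (medians -0.31 and -0.42 against 0.09). Of all genes 1.23% were higher and 0.115% lower in the portal vein, and 1.33 and 0.147% in the central vein. Cholangiocytes had 7 of 26 higher and 0 lower than hepatocytes, a share near the 28.6% of all genes that were higher (8.67% were lower), at a median of 0.57 against 1.38 over all genes. The 7 were led by the kinase *Src* (7.97 ± 1.08), the ubiquitin ligase *Cbl* (6.54 ± 1.41) and *Csf1r* (3.23 ± 0.61), the receptor kinase of macrophages. The immune markers summed to 9.21 and 200 CPM in the male and female cholangiocytes and to 28.9 CPM in the male hepatocytes, and their part in the *Csf1r* difference was not tested. With sums per plate *Cbl* and *Csf1r* were not called (adjusted p = 0.13 and 0.17). In #i2, *Flt3*, the receptor kinase of dendritic cell precursors, was higher than in Kupffer cells (8.31 ± 2.50) and *Lrp1* lower (-2.37 ± 0.63), where 2.77 and 0.0995% of all genes were, with a median of -0.30 against 0.09. As #i2 had 1 sum, both calls lean on the spread of the Kupffer sums. Both were lost with the pool as a block (adjusted p = 1 and 0.21), where 0.0845% of all genes were called, and *Lrp1* was not called with DESeq2 (adjusted p = 0.81). Between classes, the mesenchymal class had 6 higher and 2 lower of 28, against 9.47 and 2.33% of all genes, at a median of -0.13 against 0.02, led by *Pdgfrl* (6.86 ± 0.41), *Plat* (5.75 ± 0.71) and *Pcsk6* (4.30 ± 0.98). The endothelial class had 5 and 5 against 5.33 and 2.96% (*Kit* 6.14 ± 0.82, *Lrp1* -5.47 ± 0.63, *Ptprj* -4.52 ± 0.70), the immune class 8 and 2 against 7.92 and 5.25% (*Flt3* 7.19 ± 1.22, *Csf1r* 6.20 ± 0.36, *Ptprj* 4.73 ± 0.48), and the epithelial class 2 and 3 against 8.37 and 4.05% (*Pdgfrl* -4.61 ± 0.59, *Kit* -4.24 ± 1.15, *Nrp1* -3.97 ± 0.47). The medians were 0.30 against 0.04, 0.14 against 0.09 and -0.96 against -0.27. Some of these calls rested on single pools: *Flt3* was at 1.78 (adjusted p = 0.55) without the male immune pool, *Ptprj* in the endothelial class at -4.10 (adjusted p = 0.077) without the male endothelial pool, and *Pcsk6* was not called without either mesenchymal pool (adjusted p = 0.095 and 0.06), without the male epithelial (0.065) or without the male immune pool (0.061). *Kit* in the epithelial class was not called with the pool as a block (-3.98, adjusted p = 0.095), and leaving out 5 of the 8 pools in turn also ended its call (adjusted p = 0.051 to 0.17).

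Over the 30 clusters, both pools together, the genes with the profile most like each member were named by Pearson's r of log2(CPM + 1) among 16593 genes. The clusters share libraries and differ in depth, and the values are descriptions. For *Pdgfra* they were *Gli3* (0.979), *Col5a1* (0.978) and *Gm26889* (0.973), and for *Pdgfrb* *Cygb* (0.967), *Des* (0.965) and *Gpc6* (0.960). *Pdgfd* was followed most closely by *Grb10* (0.914), *Erbb2* (0.909) and *Mfge8* (0.897), and *Pdgfc* by *Gm16000* (0.875), *Cadm1* (0.846) and *Ptprj* (0.793). *Pdgfa* had *Pkia* (0.875), *Fstl3* (0.873) and *Prss57* (0.871), and *Pdgfb* *Rsad2* (0.822), *Ly6g6d* (0.818) and *Dysf* (0.812). Of these 18 genes, 4 were also among the 3 nearest by Spearman's rho. Between the members, r was highest for *Pdgfra* with *Pdgfrb* (0.89), followed by *Pdgfa* with *Pdgfrb* (0.78) and with *Pdgfra* (0.71), and lowest for *Pdgfb* with *Pdgfra* (-0.60).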

How the data were processed

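Single-cell Smart-seq2 counts of 3491 cells were analysed as the authors deposited them: raw whole-number counts of single 50-base reads per gene, without molecular identifiers. The submitters' processing notes name bcl2fastq, Bowtie, Bowtie2, Subread, featureCounts and Seurat, with the builds GRCm38 and mm10. The authors had removed cells with few or very many genes. Spike-in rows (1.95% of counts) were left out. Cells were grouped by the authors' class, cluster and annotation columns and by the sex pool of the labels.

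Counts were summed per class and pool (8 sums) or per cluster and pool (at least 5 cells) and tested over all genes with edgeR 4.0.16 (TMM, filterByExpr, quasi-likelihood test; R 4.3.3), without the pool as a block; a gene was called at a Benjamini-Hochberg adjusted p under 0.05 and an absolute log2 change of 1 or more. The fit of the epithelial sums had 1 residual degree of freedom, the others 3 to 10. Alternatives were DESeq2 1.42.0, no filter, 3 or 10 cells per sum, a sum for each plate, thinning to 50000 counts, a block for the pool, and leaving out pools. Scripts were tested on simulated data. Exon lengths came from GENCODE vM21, promoters from RefSeq (GRCm38.p6), in a table in which 4 of the 6 genes were matched. Intervals are exact binomial at 95%; floors are 3 counts. Deviations of the same-numbered pools correlated at 0.13 to 0.21 in all 6 pairs of classes, which pairs them by the check used here; the pairing comes from the sex and not from named animals. The fit without the block stayed the main one, and blocked values are given where they change a call. Named genes were the members, up to 3 called pathway genes with the largest change per comparison, and the 3 nearest genes by Pearson's r. The members and lists were chosen with earlier results of these data known.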

Additional observations from a re-analysis of the deposited data

Results flagged for a closer look

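Of 48 differences of a member between cell types that were measured in both pools, 13 had opposite signs in the male and the female pool, and 2 of these were at least 1 in size in each pool, a difference between pools that was not tested. *Pdgfc* in peribiliary against other fibroblasts differed in mean log2(CPM + 1) by 2.23 in the male pool (21.2 CPM in 89 cells) and by -1.50 in the female pool (2.39 CPM in 9 cells). *Pdgfa* in the central vein cluster #e1 against the sinusoids differed by -1.19 in the male and 1.33 in the female pool, at 1.08 and 4.96 CPM.

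Some clusters were left out of the comparisons between clusters, though their cells were counted in the class pools. Members that passed a limit there, at least 10 CPM with more than 3 counts, are listed. In the lymphatic endothelium (#e4) *Pdgfb* reached 216 and 137 CPM (9 male and 13 female cells), with 99.7 and 72.2% of the counts from 1 cell each. There *Pdgfrb* was at 71.1 CPM in the male pool but at 0 in the female pool. *Pdgfa* was at 188 CPM in the female pool (64.0% from 1 cell) but at 2.50 CPM in the male pool. In the second central vein cluster (#e7) *Pdgfd* was at 33.5 and 45.6 CPM. *Pdgfa* was at 18.6 and *Pdgfb* at 16.1 CPM in its male pool, against 0.0610 and 0.732 CPM in its female pool. *Pdgfc* was at 35.3 CPM in the female pool (99.7% from 1 cell) and did not pass the limit in the male pool. In 2 female mesothelial cells (#m16c) *Pdgfa* was at 90.5, *Pdgfd* at 62.4, *Pdgfrb* at 34.3 and *Pdgfra* at 12.2 CPM. In the male cells of this cluster no member passed the limit.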

How the results depend on the processing

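Of 630 fold changes of single members computed again under other settings, 564 kept direction and call, 15 lost the call, 22 gained one and 29 turned. None of the 29 had been called. The pool as a block changed the call of 1 member, *Pdgfb* in the mesenchymal class, and no other. For *Pdgfrb* in HSC against mural cells (0.01) they were -0.03 with DESeq2, -0.02 after thinning and -0.09 with at least 10 cells per sum, and in second layer against mural cells (0.02) -0.02, -0.10, -0.05 and, with sums per plate, -0.17. For *Pdgfd* they were -0.10 in mural cells against fibroblasts with at least 10 cells (0.17 before); in HSC against fibroblasts (0.02) 0.00 with DESeq2, -0.06 with the pool as a block, -0.10 after thinning and -0.24 with 10 cells; in HSC against mural cells (-0.15) 1.27 with 3 cells and 0.29 with sums per plate; in peribiliary fibroblasts (-0.59) 0.15 with 10 cells and 0.36 with sums per plate; in capsular HSC (1.16) -1.62 with 3 cells; and in #i2 (0.02) -0.13 with 10 cells. In peribiliary fibroblasts *Pdgfa* came to 0.20 after thinning (-0.40) and *Pdgfb* to -3.36 with 10 cells (3.03). In the central vein *Pdgfa* came to 0.17 after thinning and 0.45 with sums per plate (-0.17), and *Pdgfb* (0.09) to -0.01 with DESeq2, -0.27 with the block, -0.13 with 10 cells and -0.25 with sums per plate. In #i2 *Pdgfra* came to 0.60 after thinning (-0.48) and *Pdgfrb* to 0.35 with the block (-0.21). *Pdgfb* in the epithelial class (1.29) was -0.29 to 2.02 when an epithelial pool was left out. For the pathway genes that were called, a check added after seeing the data gave 557 values under the same settings, of which 456 were called, 101 were not and 0 turned. The counts of members called moved as follows. Without the filter 4 ligands were called in the mesenchymal and 2 in the immune class (2 and 1 before), and DESeq2 called 2 in the immune class. DESeq2 called 3 in the mesenchymal and 3 in the endothelial class (2 before), as did the block in the first and no filter or thinning in the second. Leaving out pools gave 2 to 3 calls in the mesenchymal, 0 to 2 in the endothelial, 1 to 2 in the immune and 1 to 2 in the epithelial class. Mural cells against fibroblasts gave 2 calls (1 before) with DESeq2, without the filter and with at least 10 cells per sum; arterial against venous SMC gave 1 (0 before) under the same 3 settings. HSC against fibroblasts gave 1 with DESeq2 (0 before), HSC against mural cells 2 with DESeq2 and 2 with sums per plate (1 before), and cholangiocytes against hepatocytes 2 with sums per plate (4 before). The cause was not tested. The share of cells with both receptors went, from 1 count to 20 counts, to 51.8 and 76.7% in fibroblasts, 41.5 and 69.2% in HSC, 8.11 and 3.82% in mural cells and 30.3 and 66.7% in second layer cells, and after thinning to 73.9 and 91.0%, 66.5%, 23.9 and 36.3%, and 56.1 and 81.0%. Without either pool the comparisons within classes gave 112 values with no test, of which 26 lay further from the main fold change than its SE. These values were differences of mean log2(CPM + 1), a measure unlike the fitted fold change. DESeq2 called 17.8 to 23.5% of all genes between classes (edgeR 8.28 to 13.2%), 1.04 to 8.97% within the mesenchyme (0.0234 to 3.87%), 3.06 to 3.73% in the endothelium (1.35 to 1.48%) and 0.696% in #i2 against Kupffer cells (2.87%); without the filter 12.2 to 15.9% were called between classes and 2.70 to 2.91% in the endothelium. Sums per plate called 7.96% in cholangiocytes against hepatocytes (37.3%) and 3.35 to 4.94% in the endothelium.

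With the pool number as a block in the same fit, the mesenchymal, endothelial, immune and epithelial classes gave 3, 2, 1 and 2 calls among the ligands. The block changed no other call than that of *Pdgfb* in the mesenchymal class (-2.45). Within classes, 33 of 45 mesenchymal cluster pairs correlated above 0.1, at a median of 0.13 and a range of 0.02 to 0.25. Most mesenchymal sums thus deviated together by pool. Of the endothelial cluster pairs 3 of 28 correlated above 0.1, and of the immune ones 1 of 3. With the block, *Pdgfra* in mural cells against fibroblasts came to -4.23. The epithelial clusters left no residual degree of freedom for a block.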
